A study of Mus musculus with 24 samples.

Results

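The genes described here move sodium, chloride and bicarbonate across the epithelium of the small intestine. They are 8 of the 17811 gene identifiers in the deposited count table, taken by symbol: Slc9a2, Slc9a3, Slc26a3, Slc26a6, Slc4a4, Cftr, Car4 and Atp1b1. Each symbol stood in the table once. Of these genes, 7 had enough counts to be tested and Slc9a3 did not. The libraries are bulk messenger RNA from the jejunum of 4 male C57BL/6 mice, aged 10 weeks and fed regular chow, with no treatment or genotype difference between groups. Cells were freed with EDTA, labelled with antibodies to CD73 and CD26, which are proteins of the enterocyte surface, and separated by flow cytometry into 6 villus zones. V1 is labelled the most bottom zone, V2 bottom, V3 bottom-middle, V4 middle, V5 middle-tip and V6 tip. Every mouse gave 1 library per zone, which makes 24 libraries and 4 per zone. A zone is a sort gate, so its number gives an order along the villus and not a measured distance.

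In the gut, salt is absorbed when sodium-proton exchangers of the SLC9 family and chloride-bicarbonate exchangers of the SLC26 family work side by side in the brush border, the microvillus membrane that faces the lumen. Carbonic anhydrases supply both with protons and bicarbonate, and the sodium pump in the basolateral membrane, which faces the blood, keeps cell sodium low. Secretion runs the other way, through the chloride channel CFTR in the luminal membrane, with chloride and bicarbonate brought in from the blood side by cotransporters. It is classically placed in the crypt and the lower villus, and absorption on the villus.

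The promoters of Slc26a3 and Slc26a6 are printed first, because the transcripts of these 2 brush-border chloride-bicarbonate exchangers took different courses along the villus. Each line holds the 250 bases before the RefSeq start site on GRCm38.p6, 5′ to 3′ on the gene's strand. The first lies at chr12:31437969-31438218 and the second at chr9:108853793-108854042, both on the plus strand, and both start sites lie inside the GENCODE gene span, whose first transcript begins further upstream. Capitals mark matches to 5 motifs searched on both strands: GTTAAT for the half-site of HNF1, CAAAGNNCA for a direct repeat of the HNF4 kind, TTTATNG for CDX2, AGATAA for GATA factors, and TATAAA for the promoter element of that name.
Slc26a3: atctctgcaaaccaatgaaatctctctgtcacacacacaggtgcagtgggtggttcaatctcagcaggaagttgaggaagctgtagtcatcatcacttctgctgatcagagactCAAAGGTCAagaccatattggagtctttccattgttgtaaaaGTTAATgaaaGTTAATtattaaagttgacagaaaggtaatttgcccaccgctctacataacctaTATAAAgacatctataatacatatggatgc
Slc26a6: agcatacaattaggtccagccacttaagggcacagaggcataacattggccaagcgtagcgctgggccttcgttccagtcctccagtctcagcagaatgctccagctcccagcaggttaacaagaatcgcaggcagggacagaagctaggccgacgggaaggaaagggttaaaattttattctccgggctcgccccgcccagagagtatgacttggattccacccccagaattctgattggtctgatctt
The Slc26a3 window held GTTAAT at -94 and again at -84 from the start site, CAAAGGTCA at -136 and TATAAA at -30, with no overlap between them. Of 32851 RefSeq promoter windows of the same length, 6.43% held the HNF1 half-site, 5.49% the HNF4 repeat, 9.81% the CDX2 motif, 9.99% the GATA factor motif and 12.4% the TATA box. The Slc26a6 window held no match to these letters, and neither did the windows of Slc9a3, Slc4a4, Cftr, Car4 and Atp1b1, with 2 windows for Slc4a4. RefSeq entries were matched for 7 of the 8 genes, and Slc9a2 had none in the table used. GC content was 38.8% in the Slc26a3 window and 53.2% in that of Slc26a6, beside a median of 52.4% over all windows.

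The 24 libraries had between 806541 and 2266261 unique molecular identifiers (UMIs, each standing for 1 captured molecule), with a median of 1502948.5. Levels are given in CPM, counts scaled to a common library size, after TMM scaling, which corrects library size for shifts in composition, as mean ± SD over 4 mice. A count of 0 allows up to 3 counts, which is 1.31 to 4.05 CPM depending on the library and covers counting error only. Summed markers of enterocytes, the absorptive cells, went from 14200 ± 5850 CPM in V1 to 68200 ± 16300 in V4 and 65600 ± 10300 in V6, with 7 of 7 markers detected in every zone. Goblet cell markers went the other way, from 71900 ± 24400 CPM in V1 through 36300 ± 14100 in V2 to 11500 ± 4910 in V3 and 11300 ± 2880 in V6, with none of 7 at 0. Crypt and dividing cell markers had 164 ± 17 CPM in V1 and 83.3 ± 10.3 in V6, and leukocyte markers 15.1 ± 12.2 and 128 ± 21.2. Paneth cell markers had 11700 ± 5270 CPM in V1 and 7750 ± 3260 in V6, with their highest mean in V5 at 17400 ± 14500. Enteroendocrine markers, 6 of 7 in the table, were at 2090 ± 320 CPM in V1, then 611 ± 285 in V4, and 4300 ± 1210 at the tip. Within that sum Gip fell from 1320 ± 162 CPM in V1 to 129 ± 27.5 in V6. Chga, Chgb, Cck, Sct and Tph1 were each higher on average in V6 than in V1. Tuft cell markers had 9.35 ± 6.46 CPM in V1 and 25.9 ± 14.4 in V6. Markers of stromal and endothelial cells summed to between 1.09 and 15.1 CPM in all libraries, with 1 to 3 of 6 at 0 in each zone. The enterocyte and goblet cell sums moved along the same zones as the genes below, and the goblet cell sum changed most between V1 and V3. The part of all these cell types in the results was not tested, and in bulk samples fewer cells of a type and less RNA per cell cannot be told apart.

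**Figure D1:**
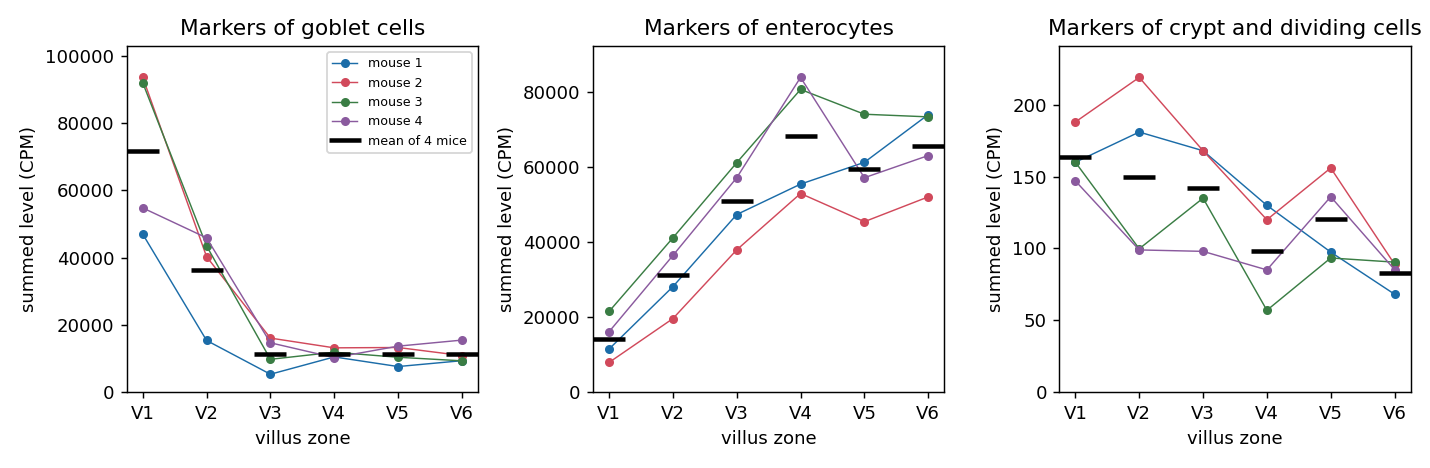
Summed level (CPM) of the goblet cell, enterocyte, and crypt and dividing cell markers by villus zone, with 1 coloured line per mouse and a black bar for the mean of 4 mice. Goblet cell markers lie between 47000 and 93600 CPM in V1 and between 5350 and 16100 in V3, while enterocyte markers lie highest on average in V4, at 68200 CPM.

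The first question was which of these transcripts rise or fall from the bottom to the tip, taken as the slope of log2 level per zone. Over V1 to V6, Slc9a2, Slc26a6 and Slc4a4 had an upward slope and Car4 a downward one, at an adjusted p under 0.05 in edgeR. Slc26a3, Cftr and Atp1b1 were not called. So 3 of the 7 tested genes rose and 1 fell, where 22.1% of all 9328 genes tested rose and 22.8% fell. Their median slope was 0.046 per zone, and that of all genes -0.00462. In a fit with mouse as a block, Atp1b1 was called upward as well (slope 0.06, adjusted p = 0.0366), beside 27.6% of all genes upward and 27.8% downward. Scaling by total UMIs instead of TMM took the median log2 difference between V6 and V1, over all tested genes, to -0.335 in place of -0.000287, and the split of all calls from 2066 up and 2128 down to 1225 up and 3692 down. Against that shift Slc26a3 (slope -0.10, adjusted p = 0.0464) and Cftr (-0.15, adjusted p = 0.0443) were called downward beside Car4, while Slc9a2, Slc26a6 and Slc4a4 stayed called upward. At the ends of the villus, V6 was called above V1 for the same 3 genes and below V1 for 0 of the 7, beside 20.2% and 18.6% of all genes. At an unadjusted p under 0.05, 0 were lower there in edgeR, DESeq2 or limma-voom. A test of any difference between the 6 zones called those 3 as well, where 27.5% of all genes were called, and 6 of the 7 with the mouse as a block, with Cftr the exception (adjusted p = 0.262). The blocked test called 48.6% of all genes. Over V2 to V6 alone, Slc9a2 kept its upward call in edgeR (slope 0.35, adjusted p = 3.4e-07). Slc26a6 (0.08, adjusted p = 0.0847) and Slc4a4 (0.02, adjusted p = 0.911) did not. With the mouse as a block, Slc26a6 was called over those zones (adjusted p = 0.0219) and Slc4a4 was not (adjusted p = 0.923).

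**Figure D2:**
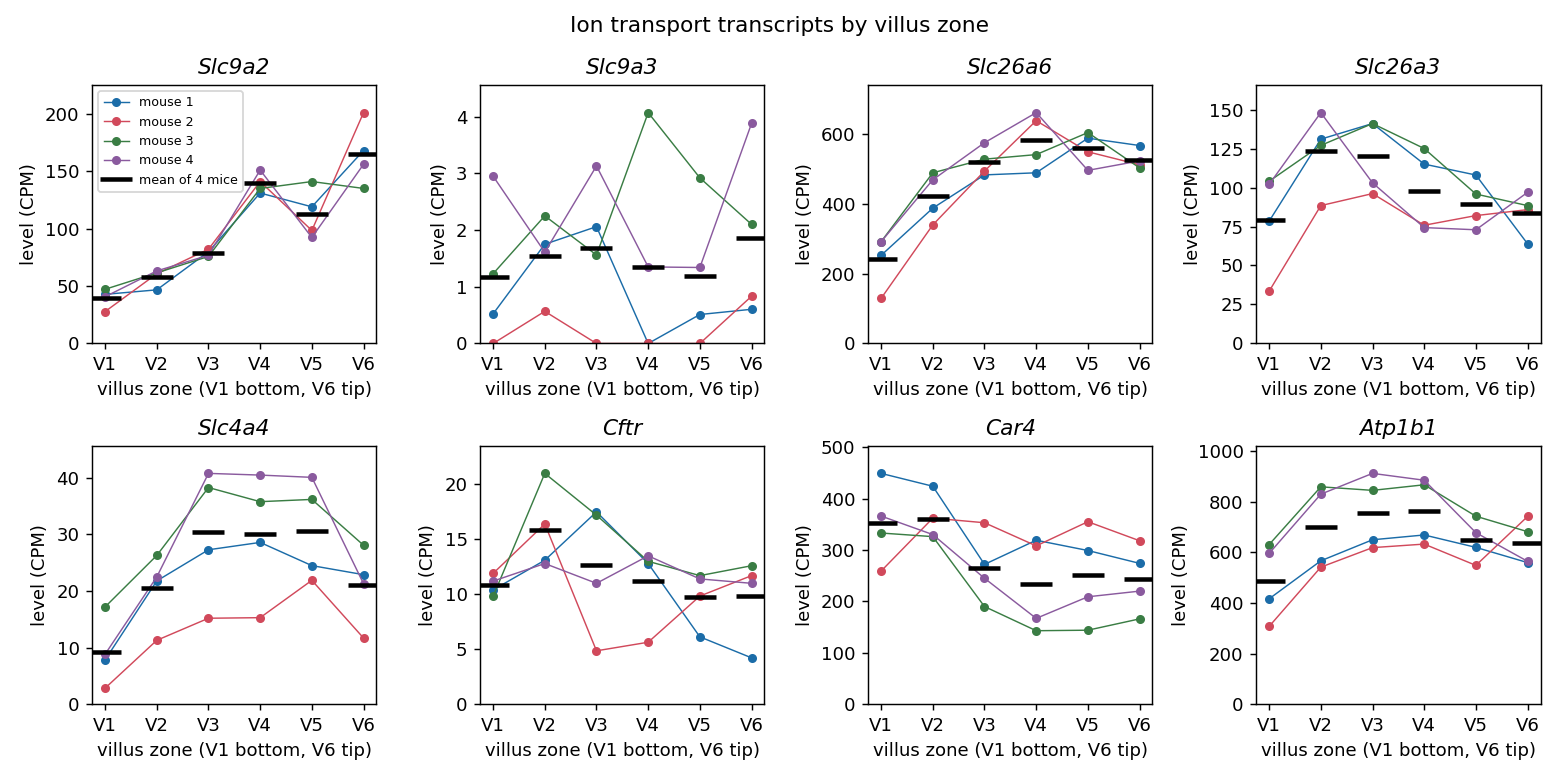
Level (CPM, linear axis from 0) of each of the 8 genes by villus zone, with 1 coloured line per mouse and a black bar for the mean of 4 mice. Slc9a2 climbs from a mean of 39.6 CPM in V1 to 165 in V6, Slc26a6 and Slc4a4 are lowest in V1 in all 4 mice, Slc26a3 is highest in V2 or V3, and Slc9a3 is at most 4.07 CPM in every library.

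Slc9a2 encodes a sodium-proton exchanger of the luminal membrane, and of the 7 tested genes it had the steepest slope. In V1 it had 42.8, 27.8, 47.2 and 40.7 CPM in mice 1 to 4. In V4 it had 131, 141, 135 and 151 CPM, and in V6 168, 201, 135 and 156 CPM. All V4 and V6 libraries lay above all V1 libraries, as was so for 16.2% of all genes from V1 to V4 and for 17.9% from V1 to V6. V5 (113 ± 22.2 CPM) was lower than V4 (140 ± 8.73) in 3 of 4 mice, while V6 (165 ± 27.7) was higher than V5 in 3 of 4. The slope was 0.40 ± 0.028 (SE; adjusted p = 1.6e-10), and V6 was 4.15-fold above V1 (log2 2.05 ± 0.17, adjusted p = 5.0e-09). Leaving out any 1 mouse or any 1 library kept the slope between 0.37 and 0.42 and the call. Among steps between neighbouring zones, V3 to V4 was called (log2 0.82 ± 0.16, adjusted p = 0.048), where 0.0643% of all genes were called upward. That step kept its size (0.78 to 0.87) but held its call in 10 of 28 leave-outs. The call was lost without any 1 mouse, without V1, V3, V5 or V6 of mouse 1, V2, V3 or V4 of mouse 2, V2, V3 or V4 of mouse 3, or V1, V3, V4 or V6 of mouse 4 (adjusted p up to 0.784). It was lost as well with total UMI scaling (0.68, adjusted p = 0.196), without the filter (0.80, adjusted p = 0.121) and in limma-voom (0.82, adjusted p = 0.0513), and held in DESeq2 (adjusted p = 0.00125). The fit with the mouse as a block called V1 to V2 (adjusted p = 0.0188), V3 to V4 (adjusted p = 0.00139; 1.94% of all genes upward) and V5 to V6 (adjusted p = 0.0383; 1.47% upward). Zone accounted for 93.4% of its variance in log2 level and mouse for 0.205%. Slc9a2 (ENSMUSG00000026062) spans 40680574 to 40769273 on the plus strand of chromosome 1 in GENCODE M21, on GRCm38.

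Slc9a3 encodes the exchanger known as the main route of sodium-proton exchange in the intestinal brush border, but its transcript was hardly counted here. It had 54 UMIs over all 24 libraries, with 5 libraries at 0, 12 at 1 to 3 and 7 above 3, the highest at 6. Its summed count was 8 in V1, 11 in V2, 10 in V3, 6 in V4, 8 in V5 and 11 in V6. Most libraries were thus at or under the floor of 3 counts, no fold is given, and a zone difference was not detectable at this depth. Mouse 2 had 2 UMIs in all its zones together, 1 in V2 and 1 in V6. Slc9a3 (ENSMUSG00000036123) runs on the plus strand of chromosome 13 from 74121457 to 74169442. In the annotation its end lies 46 bases from the end of Exoc3, which runs on the opposite strand and had 1062 UMIs, with 30.2 ± 3.9 CPM in V1 and 30.2 ± 4.57 in V6 (slope -0.01, adjusted p = 0.888). Whether reads of Slc9a3 were counted for its neighbour was not tested. The log2 count ratio of Slc9a3 to Slc9a2 within each library, with 0.5 added to each count, had a mean slope of -0.333 per zone. With 0 to 6 molecules of Slc9a3 per library, this slope carries the rise of Slc9a2 given above and no separate result for Slc9a3.

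Slc26a6 encodes a brush-border exchanger that swaps chloride for bicarbonate or oxalate, and its transcript rose between V1 and V4, with no called change from V4 to V6. In V1 it had 252, 129, 291 and 291 CPM in mice 1 to 4. In V4 it had 488, 637, 540 and 660 CPM, and in V6 566, 511, 502 and 522 CPM. Every library of V2, V4 and V6 lay above every library of V1. Taken zone by zone, this was so for 4.14%, 16.2% and 17.9% of all genes. V4 was 2.41-fold above V1 (log2 1.27 ± 0.19, adjusted p = 1.7e-05) and V6 2.18-fold (1.13 ± 0.19, adjusted p = 5.7e-05), with a slope of 0.20 ± 0.031 (adjusted p = 1.9e-05). The step from V1 to V2 was called (1.75-fold, log2 0.80 ± 0.18, adjusted p = 0.0246), where 1.44% of all genes rose and 0.0858% fell. That step held its call in 21 of 28 leave-outs and lost it without mouse 1, 3 or 4, V1 of mouse 1, V1 of mouse 2, V2 of mouse 3 or V2 of mouse 4 (log2 0.60 to 0.91 over all leave-outs, adjusted p up to 0.185). The order of the zone means from V4 (581 ± 80.9 CPM) through V5 (558 ± 48.1), V6 (525 ± 28.6) and V3 (519 ± 41.4) holds no neighbours that differed beyond their spread. The calls of the slope, of V4 against V1 and of V6 against V1 held without any 1 mouse or library, while the slope over V2 to V6 alone was 0.08 and not called (adjusted p = 0.0847). Under the mouse block that slope was called (0.08, adjusted p = 0.0219). The gene (ENSMUSG00000023259) spans 108853283 to 108913049 on the plus strand of chromosome 9.

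Slc26a3 encodes the other chloride-bicarbonate exchanger of the brush border, whose loss causes congenital chloride diarrhoea in people. Its transcript was highest in V2 or V3 in all 4 mice and its slope over all zones was not called (-0.04 ± 0.044, adjusted p = 0.518). In V1 it had 78.4, 33.5, 104 and 102 CPM in mice 1 to 4. In V2 it had 131, 88.4, 127 and 148 CPM, and in V6 63.9, 85.8, 88.4 and 96.9 CPM. V2 was above V1 in each mouse, although the groups overlapped, and V6 lay below V2 on average and within the range of V1. The step from V1 to V2 (1.56-fold) was not called (adjusted p = 0.237), but it was with the mouse as a block (log2 0.68, adjusted p = 0.0276; 9.22% of all genes higher and 5.68% lower). From V2 to V6 the slope was -0.15 (adjusted p = 0.0292), and -0.15 with the mouse as a block (adjusted p = 0.00137). V6 against V1 gave a log2 of 0.08 ± 0.26 (adjusted p = 0.834). The gene (ENSMUSG00000001225) spans 31390871 to 31473917 on the plus strand of chromosome 12.

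The balance of the 2 SLC26 exchangers was compared within each library, where library scaling cancels. Slc26a3 over Slc26a6, as the log2 ratio of counts with 0.5 added, had a mean of -1.65 ± 0.21 in V1, -1.77 ± 0.20 in V2 and -2.12 ± 0.34 in V3. It then lay at -2.60 ± 0.59 in V4, -2.64 ± 0.15 in V5 and -2.66 ± 0.33 in V6 (SD, n = 4 each). The ratio fell by 0.232 per zone (SD over mice 0.0483), in 4 of 4 mice (permutation test with 100000 shuffles of the zones in each mouse, two-sided, p = 3.0e-05, adjusted over 4 ratios 1.2e-04). It fell over V2 to V6 as well, by 0.229 per zone (permutation, adjusted p = 0.00372). Goblet cell markers had means of 36300 CPM in V2 and 11500 CPM in V3 over those zones, and their part in the ratio was not tested. The ratio was lowest in V4 in mice 2 and 4, in V5 in mouse 3 and in V6 in mouse 1. The level of such a ratio also depends on how well each transcript is captured at its 3-prime end, so its change across zones is what the comparison gives. Slc26a3 over Cftr, by contrast, had slopes on both sides of 0, up in 2 mice and down in 2 (mean 0.073 ± 0.169 SD; permutation, adjusted p = 0.318).

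**Figure D3:**
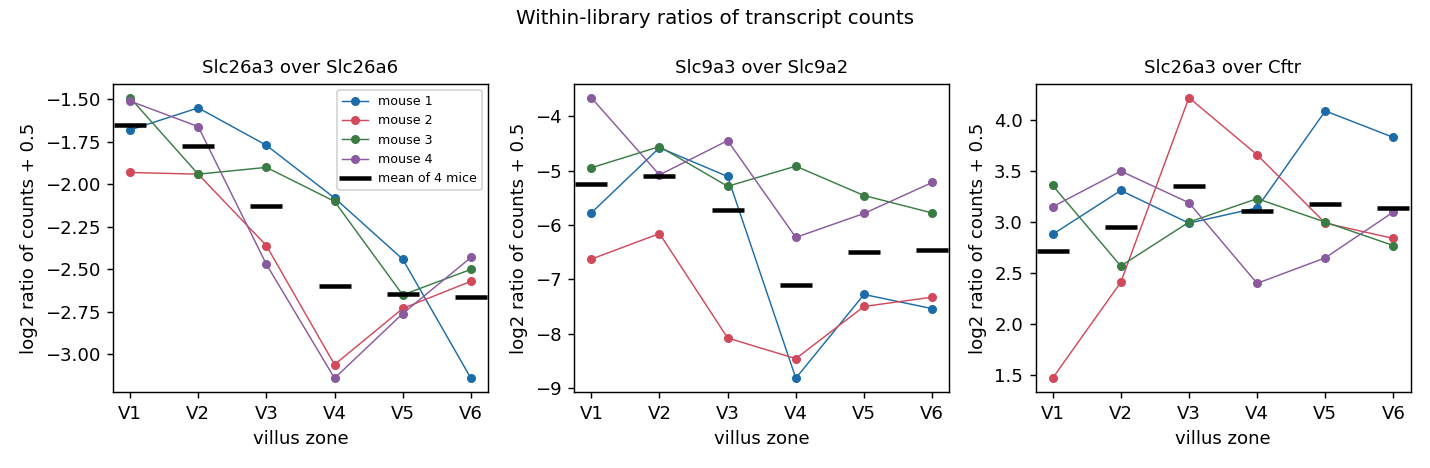
Log2 ratio of counts (0.5 added to each) for 3 gene pairs by villus zone, with 1 coloured line per mouse, a black bar for the mean of 4 mice, and a separate vertical scale in each panel. Slc26a3 over Slc26a6 falls from a mean of -1.65 in V1 to -2.66 in V6, while Slc26a3 over Cftr goes up in 2 mice and down in 2.

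Slc4a4 encodes the sodium-bicarbonate cotransporter that in the gut sits in the basolateral membrane. Its transcript was lowest in V1 in all 4 mice, with 7.84, 2.84, 17.2 and 8.84 CPM in mice 1 to 4. It reached 28.6, 15.3, 35.8 and 40.5 CPM in V4 and stood at 22.9, 11.7, 28.1 and 21.3 CPM in V6. Mouse 2 was the lowest of the 4 mice in every zone, so V1 and V4 overlapped although each mouse rose. V4 was 3.24-fold above V1 (log2 1.69 ± 0.41, adjusted p = 0.00278), and this call held without any 1 mouse or library. From V4 to V6 the level was lower in 4 of 4 mice, yet the difference was not called (log2 -0.48 ± 0.38, adjusted p = 1, or 0.431 with the mouse as a block). The slope was 0.22 ± 0.068 (adjusted p = 0.00994). It was lost without mouse 1 (0.22, adjusted p = 0.0743) or mouse 4 (0.21, adjusted p = 0.0617), and over V2 to V6 it was 0.02 (adjusted p = 0.911). V6 was 2.32-fold above V1 (log2 1.21 ± 0.41, adjusted p = 0.0232). That call was lost without mouse 1 (log2 1.09, adjusted p = 0.154), mouse 4 (1.20, 0.0943), or 1 library: V1 of mouse 1 (1.15, 0.0598), V6 of mouse 1 (1.17, 0.0512), V1 of mouse 2 (0.91, 0.0867) or V6 of mouse 3 (1.04, 0.0756). It was also lost with total UMI scaling (0.89, adjusted p = 0.0682). Both calls held under the mouse block, with an adjusted p = 5.7e-06 for the slope and 3.8e-05 for V6 against V1. The gene (ENSMUSG00000060961) spans 88886818 to 89239653 on the plus strand of chromosome 5.

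Car4 encodes a carbonic anhydrase anchored to the outer face of the luminal membrane, which interconverts carbon dioxide and bicarbonate there. Its slope over V1 to V6 was the only one of the 7 called downward in edgeR with TMM scaling, while over V2 to V6 Slc26a3 was called downward and Car4 was not. In V1 it had 449, 259, 333 and 366 CPM in mice 1 to 4. In V4 it had 319, 308, 143 and 167 CPM, and in V6 274, 318, 166 and 220 CPM. Mice 1, 3 and 4 were lower in V6 than in V1, while mouse 2 was higher, and the zones overlapped. The mean was 361 ± 45.3 CPM in V2 and 265 ± 68.1 in V3, lower in 4 of 4 mice, although that step was not called (adjusted p = 0.713, or 0.138 with the mouse as a block). The slope was -0.12 ± 0.047 (adjusted p = 0.0336). V6 against V1 (log2 -0.52 ± 0.28, adjusted p = 0.137) and V4 against V1 (-0.58 ± 0.28, adjusted p = 0.102) were not called. Blocking on mouse gave a slope of -0.14 (adjusted p = 4.5e-04), V6 against V1 of -0.58 (adjusted p = 0.00929; 24.7% of all genes lower) and V4 against V1 of -0.66 (adjusted p = 0.00406; 24.8% lower). Without the block the slope lost its call when mouse 1, 3 or 4 was left out, or V1 or V2 of mouse 1, V5 or V6 of mouse 3, or V1, V5 or V6 of mouse 4. The slopes then lay between -0.12 and -0.09 and the adjusted p between 0.0525 and 0.163. Without mouse 2, V6 against V1 was -0.84 (adjusted p = 0.0332) and V4 against V1 -0.88 (adjusted p = 0.0289). With total UMI scaling V6 against V1 was -0.87 (adjusted p = 0.0187) and V4 against V1 -0.89 (adjusted p = 0.0182). The slope was not called over V2 to V6 (-0.12, adjusted p = 0.237; with the mouse as a block -0.13, adjusted p = 6.6e-04) or without the filter on low counts (-0.12, adjusted p = 0.058). Goblet cell markers also had a lower mean in V3 than in V2, 11500 against 36300 CPM, and their part in the Car4 values was not tested. The gene (ENSMUSG00000000805) spans 84957786 to 84966044 on the plus strand of chromosome 11.

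Cftr, the chloride and bicarbonate channel of secretion, was found at a low level in every zone. Its counts per library ran from 7 to 34, with zone means between 9.76 ± 2.55 CPM in V5 and 15.8 ± 3.8 in V2. In V1 it had 10.4, 11.9, 9.81 and 11.2 CPM in mice 1 to 4, in V2 13.1, 16.4, 21 and 12.8, and in V6 4.22, 11.7, 12.6 and 11. All V2 libraries lay above all V1 libraries, as was so for 4.14% of all genes, yet that step was not called (log2 0.53 ± 0.34, adjusted p = 0.482). The slope was -0.09 ± 0.060 (adjusted p = 0.25), and V6 against V1 was -0.15 ± 0.36 (adjusted p = 0.763), and neither was called at this depth. Over V2 to V6 with the mouse as a block the slope was -0.18 (adjusted p = 0.0454). The gene (ENSMUSG00000041301) spans 18170687 to 18322768 on the plus strand of chromosome 6.

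Atp1b1 encodes the beta subunit of the sodium pump, which carries the pump to the basolateral membrane. Its transcript rose between V1 and V4 and was lower again, on average, in V5 and V6. In V1 it had 416, 307, 630 and 595 CPM in mice 1 to 4. In V4 it had 668, 632, 866 and 884 CPM, and in V6 559, 741, 681 and 564 CPM. All V4 libraries lay above all V1 libraries, as was so for 16.2% of all genes, and V6 overlapped with both. V4 was 1.57-fold above V1 (log2 0.65 ± 0.21, adjusted p = 0.019; with the mouse as a block, adjusted p = 1.0e-04). That call was lost without mouse 1 (log2 0.62, adjusted p = 0.0749), mouse 4 (0.68, 0.0593), V1 of mouse 1 (0.58, 0.0612), V1 of mouse 2 (0.48, 0.0824), V4 of mouse 3 (0.57, 0.0598) or V4 of mouse 4 (0.57, 0.0599), and with total UMI scaling (0.33, adjusted p = 0.18). V6 against V1 was not called (log2 0.39 ± 0.21, adjusted p = 0.146), but it was with the mouse as a block (0.44, adjusted p = 0.00654; 26.7% of all genes higher). Atp1b1 (ENSMUSG00000026576) spans 164437109 to 164458355 on the minus strand of chromosome 1 and overlaps Nme7 on the other strand, which had 1845 UMIs. The sources used here do not give whether reads were counted by strand.

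The lower and the upper villus were then compared directly. From V1 to V4, Slc9a2, Slc26a6, Slc4a4 and Atp1b1 rose, which is 4 of 7 tested genes upward and 0 downward, beside 19% of all genes upward and 17.5% downward. The blocked fit called the same 4 genes upward and Car4 downward, beside 25.7% and 24.8% of all genes. At an unadjusted p under 0.05, edgeR placed 4 genes upward and 1 downward, and DESeq2 and limma-voom called 4 upward and 0 downward after adjustment. From V4 to V6, 0 of the 7 genes were called in either direction by edgeR, by edgeR with the mouse as a block, by DESeq2 or by limma-voom, and 0 had an unadjusted p under 0.05 in edgeR. Under the mouse block 1 of the 7 lay lower at an unadjusted p under 0.05, as did 258 of all 9328 genes, with 517 higher. After adjustment the blocked fit called 1.35% of all genes upward and 0.0643% downward. Of all genes, 0.45% were called upward and 0% downward in edgeR, with 100 genes downward at an unadjusted p under 0.05, 6 called downward with the mouse as a block, 1 in DESeq2 and 0 in limma-voom. The differences from V4 to V6 ran from -0.48 ± 0.38 for Slc4a4 to 0.24 ± 0.16 for Slc9a2. These comparisons share the V4 libraries, and whether the change over the lower villus differs from that over the upper villus was not tested. From V4 to V5, 0 of all genes were called by edgeR, with or without the block, by DESeq2 or by limma-voom, and 94 were upward and 77 downward in edgeR at an unadjusted p under 0.05. Over the 5 steps edgeR called 2 member steps, the V1 to V2 step of Slc26a6 and the V3 to V4 step of Slc9a2. It called 200 steps over all genes, with 7 members and 9328 genes tested at each step. Of all genes, it called 1.44% upward at V1 to V2 and 0.0643% upward at V3 to V4. The blocked fit called 2174 steps over all genes and 7 among the members: V1 to V2 for Slc9a2, Slc26a3, Slc26a6, Slc4a4 (adjusted p = 3.6e-04) and Atp1b1 (adjusted p = 0.00657), and V3 to V4 and V5 to V6 for Slc9a2. Of all genes, the blocked fit called 9.22% upward and 5.68% downward at V1 to V2. It called 1.94% upward at V3 to V4 and 1.47% upward at V5 to V6.

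**Figure D4:**
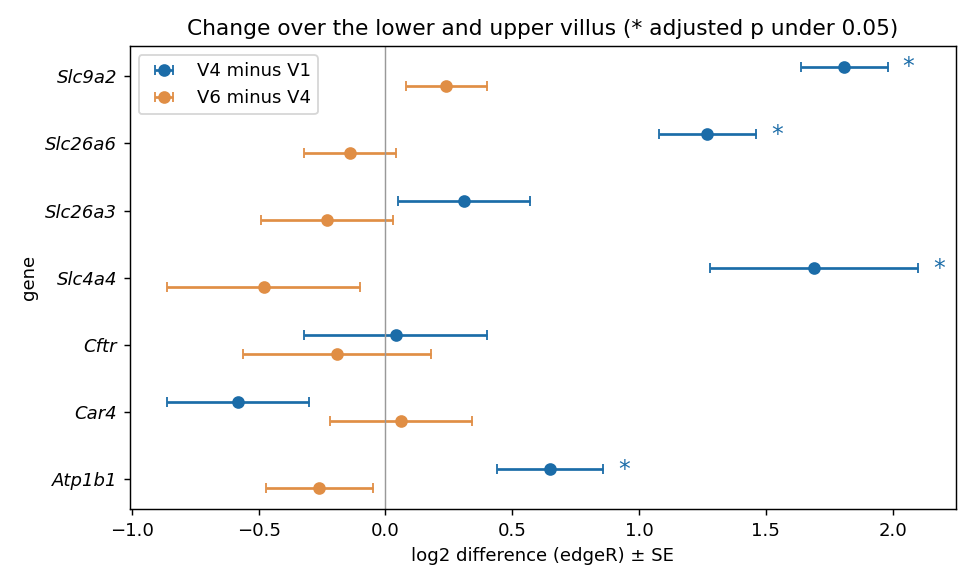
Log2 difference ± SE from edgeR for V4 minus V1 (blue) and V6 minus V4 (orange) in the 7 tested genes, with a star where the adjusted p was under 0.05. Slc9a2 (1.81), Slc4a4 (1.69), Slc26a6 (1.27) and Atp1b1 (0.65) are starred over the lower villus, and no gene is over the upper villus.

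The position of each profile was summarised as a centre, the mean zone number weighted by level in each mouse. A level that is equal in all zones gives a centre midway between V3 and V4. Slc9a2 had its centre at zone 4.22 ± 0.109 (SD, n = 4), the highest of the 7 tested genes. Slc26a6 and Slc4a4 followed at 3.84 ± 0.135 and 3.84 ± 0.108, then Atp1b1 at 3.59 ± 0.176 and Slc26a3 at 3.44 ± 0.209. Cftr lay at 3.32 ± 0.182 and Car4 lowest at 3.21 ± 0.257. Ranges over mice did not overlap between Slc9a2 (4.12 to 4.35) and Slc26a6 (3.72 to 4.01), while the ranges of Slc26a3 (3.27 to 3.74), Cftr (3.06 to 3.48) and Car4 (2.95 to 3.56) did. The ranges of Atp1b1 (3.43 to 3.83), Slc26a3 and Car4 took in the midpoint of a flat profile, and that of Cftr ended just below it.

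Other genes of ion and water transport were described from lists by role, holding 91 further symbols, of which 72 were in the table and 51 were tested. Of these 51, 25 rose toward the tip and 11 fell, where 22.1% of all genes rose and 22.8% fell. The median slope was 0.107 per zone against -0.00462 for all genes. The members and these lists were chosen with earlier results of these data known, so such shares describe the lists and do not test them. Over V4 to V6 edgeR called 0 of the 51, with 2 upward and 1 downward at an unadjusted p under 0.05, and DESeq2 and limma-voom called 0 as well. The blocked fit called 1 upward there. With total UMI scaling, which moved the median slope of all genes from -0.00462 to -0.0706, upward calls dropped to 5 of 8 scaffold genes, 4 of 13 hormone, receptor and kinase genes, 2 of 6 chloride transport genes, 2 of 4 aquaporins and 0 of 3 sodium pump genes, while downward calls went to 2 of 3 sodium pump genes and 3 of 5 carbonic anhydrases. Calls of the potassium channels stayed at 1 upward and 4 downward under every scaling tried.

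Transcripts for scaffolds and regulators of the exchangers and CFTR rose in 7 of 8 tested genes and fell in 0 (all genes, 22.1% and 22.8%), with a median slope of 0.216. Slc9a3r1, a PDZ-domain scaffold of the brush border, went from 236 ± 31.4 CPM in V1 to 786 ± 78 in V4 and 778 ± 130 in V6 (slope 0.34 ± 0.027, adjusted p = 1.6e-09). Pdzk1, a related scaffold, went from 65 ± 28.9 to 342 ± 83.5 and 270 ± 42.4 CPM (slope 0.36 ± 0.049, adjusted p = 3.2e-06). Ezr, whose product ezrin ties these scaffolds to actin, had a slope of 0.32 ± 0.027 (adjusted p = 4.0e-09).

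Genes of potassium channels, which set the voltage that drives chloride out of the cell, fell in 4 of 5 tested genes and rose in 1 (all genes, 22.8% and 22.1%), with a median slope of -0.301. Kcnq1 and its partner subunit Kcne3 had slopes of -0.34 ± 0.089 (adjusted p = 0.00433) and -0.33 ± 0.070 (adjusted p = 7.0e-04). Kcne3 went from 56.8 ± 24.3 CPM in V1 to 19 ± 9.92 in V4 and 15.6 ± 2.47 in V6. The gene that rose was Kcnk5, a potassium leak channel, at 0.17 ± 0.040 (adjusted p = 0.00158). Chloride channels and cation-chloride cotransporters rose in 3 of 6 tested genes and fell in 1, beside the same shares of all genes. The gene that fell was Slc12a2, the basolateral cotransporter that loads cells with chloride for secretion, from 25.9 ± 9.16 CPM in V1 to 6.68 ± 3.56 in V6 (slope -0.42 ± 0.091, adjusted p = 7.9e-04). Clcn2, a chloride channel, rose from 27 ± 7.62 to 78.4 ± 12.8 CPM (slope 0.28 ± 0.034, adjusted p = 4.7e-07). Ano6, a lipid scramblase and ion channel, was the most abundant of this list and had 0.13 ± 0.061 (adjusted p = 0.0826, or 8.9e-04 with the mouse as a block).

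Of the carbonic anhydrases other than Car4, only 5 were tested, of which 2 were higher toward the tip and 2 lower (all genes, 22.1% and 22.8%). Car2, a cytosolic enzyme, rose from 6.91 ± 2.89 CPM in V1 to 46.7 ± 9.72 in V4 and 39.8 ± 6.6 in V6 (slope 0.46 ± 0.043, adjusted p = 1.5e-08), and Car13, also cytosolic, had 0.15 ± 0.037 (adjusted p = 0.00224). Car8, a family member without enzyme activity, fell from 19.8 ± 6.82 to 6.38 ± 2.64 CPM (slope -0.34 ± 0.064, adjusted p = 1.8e-04). Of the sodium pump genes besides Atp1b1, 1 of 3 rose and 1 fell, beside the same shares of all genes. Fxyd3, a small pump regulator, was the one that fell, at -0.23 ± 0.047 (adjusted p = 3.8e-04). Atp1b3, the other beta subunit gene tested, had -0.11 ± 0.056 (adjusted p = 0.106, or 0.0165 with the mouse as a block). Among other sodium exchangers and channels, 1 of 3 tested genes fell and 0 rose, beside the same shares of all genes. Scnn1a, a subunit of the epithelial sodium channel, went from 17 ± 6.92 CPM in V1 to 2.97 ± 1.61 in V3 and 3.91 ± 2.12 in V6 (slope -0.42 ± 0.081, adjusted p = 2.4e-04). Its V6 libraries held 1 to 9 counts, near the floor of 3 counts. Slc9a8, another sodium-proton exchanger (0.07 ± 0.052, adjusted p = 0.262), was not called, and 0 of this list were upward at an unadjusted p under 0.05 in edgeR, DESeq2 or limma-voom.

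Of the 4 other anion exchangers and bicarbonate transporters tested, 0 were called in edgeR, DESeq2 or limma-voom. Of all genes, edgeR called 22.1% upward and 22.8% downward. At an unadjusted p under 0.05, 1 of the 4 was upward in each tool. With the mouse as a block 2 were called upward, beside 27.6% of all genes upward and 27.8% downward. Slc4a7, a sodium-bicarbonate cotransporter, came nearest, at 0.18 ± 0.080 (adjusted p = 0.0652, or 0.00258 with the mouse as a block). Slc26a2, a sulfate transporter and the most abundant of them, had 0.07 ± 0.055 (adjusted p = 0.293, or 0.0309 with the mouse as a block), and Slc4a5 had -0.06 ± 0.065 (adjusted p = 0.494). Hormones, receptors and kinases rose in 7 of 13 tested genes and fell in 2 (all genes, 22.1% and 22.8%). Those that fell were Guca2a, from 1380 ± 391 CPM in V1 to 578 ± 136 in V6 (slope -0.20 ± 0.032, adjusted p = 1.9e-05), and Stk39 (-0.12 ± 0.045, adjusted p = 0.0303). Guca2b, which encodes uroguanylin, a peptide that triggers fluid secretion, went from 1600 ± 425 CPM in V1 to 5880 ± 102 in V4 and 5030 ± 1130 in V6 (slope 0.30 ± 0.034, adjusted p = 3.0e-07). Ptger4, a prostaglandin receptor, and Adora2b, an adenosine receptor, had slopes of 0.57 ± 0.062 (adjusted p = 1.2e-07) and 0.50 ± 0.055 (adjusted p = 1.6e-07). Aquaporins, the water and glycerol channels, rose in 4 of 4 tested genes, beside the same shares of all genes. With DESeq2 size factors, or with goblet markers removed before scaling, 3 of 4 rose. Their slopes were 0.78 ± 0.083 for Aqp7 (adjusted p = 1.1e-07), 0.46 ± 0.069 for Aqp3 (adjusted p = 1.0e-05) and 0.08 ± 0.029 for Aqp11, the most abundant (adjusted p = 0.0329). Aqp7 went from 2.21 ± 2.25 CPM in V1 to 19.2 ± 4.78 in V4 and 25.9 ± 12.6 in V6. Aqp3 went from 3.35 ± 2.55 to 27.4 ± 5.25 and 19.4 ± 5.85 CPM. Aqp11 had 65.6 ± 18.1 CPM in V1, 114 ± 8.12 in V3 and 92.5 ± 5.6 in V6. The V1 libraries held 1 to 9 counts of Aqp7 and 1 to 11 of Aqp3, near the floor of 3 counts.

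**Figure D5:**
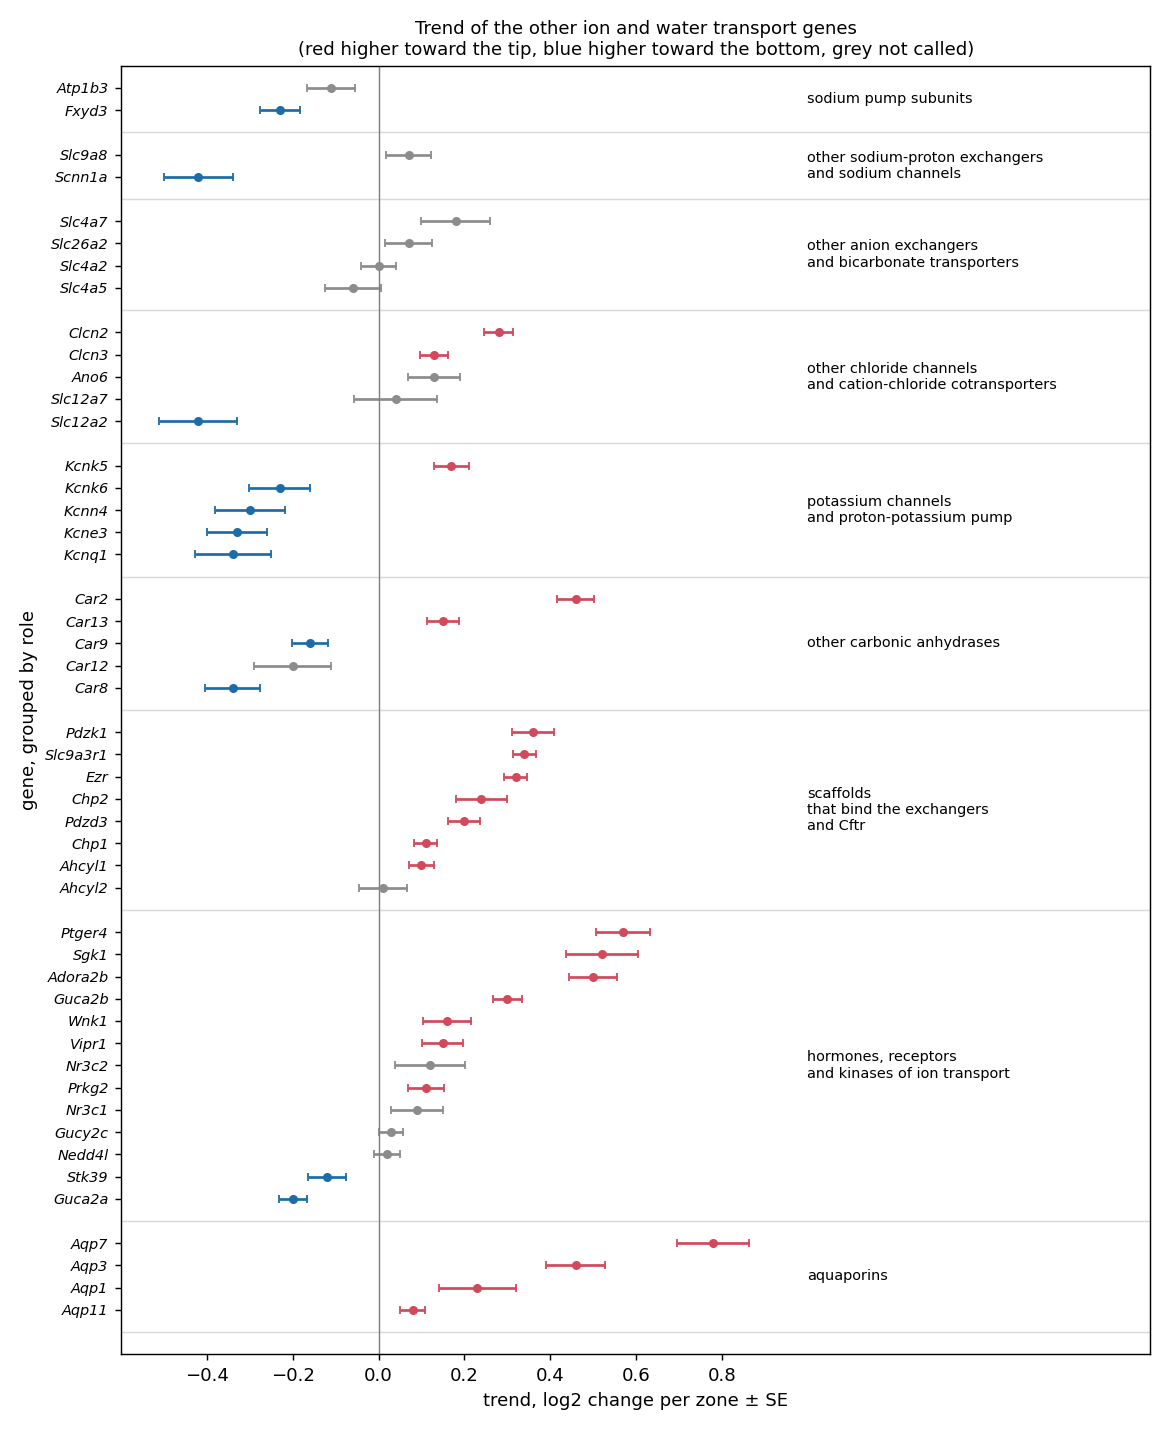
Trend (log2 change per zone ± SE, edgeR) of most of the 51 tested genes of the other ion and water transport lists, grouped by role, in red where called higher toward the tip, in blue where called higher toward the bottom and in grey otherwise. Scaffold and regulator genes (7 of 8) and aquaporins (4 of 4) are mostly red, and potassium channels (4 of 5) mostly blue.

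For each tested gene, the genes with the most similar profile were taken by Pearson r of log2 CPM over the 24 libraries, among the 2474 genes that averaged 50 CPM or more. These values describe the libraries, which share mice, depth and cell make-up. Slc9a2 was followed most closely by Pxdc1 (r = 0.972), Alpi (0.953) and Ehbp1l1 (0.949). Slc26a6 was nearest to Soat2 (0.968) and Cndp2 (0.968), and Slc4a4 to Mcur1 (0.931), Lpgat1 (0.930) and Slc7a7 (0.929). Car4 was nearest to Prpsap1 (0.957), Mgst1 (0.948) and Atp5g1 (0.908), and Atp1b1 to Ano6 (0.922), Exoc3l4 (0.903) and Eci3 (0.896). Nearest values were lower for Slc26a3, with Reg3a (0.749), Sis (0.745) and Reg1 (0.745), and for Cftr, with Eif3a (0.773), G3bp2 (0.743) and Magt1 (0.708). Among the 7 genes themselves, the highest r were 0.824 for Slc26a6 with Slc4a4, 0.818 for Slc9a2 with Slc26a6 and 0.812 for Slc4a4 with Atp1b1, and the lowest was -0.556 for Slc4a4 with Car4.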

How the data were processed

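The authors deposited raw UMI counts per gene for 24 libraries made with mcSCRB-seq, per the labels' protocols. Per the submitters' processing notes, bcl2fastq 2.15.0.4 was used and the build was GRCm38. Which aligner, annotation or filters were used is not given in the sources used here. Of 17811 identifiers, 17741 matched GENCODE M21, which gave coordinates. All per-library columns were used.

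Low genes were removed by zone with filterByExpr, at a minimum count of 10 and a minimum total of 15, which left 9328. Libraries were scaled by TMM in edgeR 4.0.16 under R 4.3.3. Its quasi-likelihood test, on 1 mean for each zone (18 residual degrees of freedom), gave each contrast, with Benjamini-Hochberg adjustment over all tested genes and calls at 0.05. The other models were edgeR with mouse as a block (15 degrees of freedom), DESeq2 1.42.0 and limma-voom (limma 3.58.1). The zones of a mouse come from the same animal per the labels, and deviations from zone means correlated in 60 of 60 within-mouse pairs (mean r 0.422, lowest 0.184), so blocked values stand beside results whose call they change. No 2 libraries of a zone were copies (chi-square per degree of freedom 3.34 to 27.5 over 36 pairs). The deposited index column, read here as a pool label, which its header does not state, gives mouse 1 and V1 of mouse 2 a shared index and each of the other groups its own, so mouse and pool cannot be told apart. In mouse 2, the difference of V1 from the other zones cannot be told apart from pool either, and the mouse block does not remove this. Ratios used 100000 permutations of zones within mice, adjusted over 4 ratios. A few results, 1 of these ratios among them, are not reported here.

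Named genes were all 8 members, and from each list up to 3 tested genes with the smallest adjusted p of the trend and the most abundant one. The 2 genes that fell among hormones, receptors and kinases were named as well. The members and lists were chosen with earlier results of these data known.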

Additional observations from a re-analysis of the deposited data

Results flagged for a closer look

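Of 48 groups of 4 libraries (8 genes in 6 zones), 2 held a library set apart from the other 3 by more than Dixon's limit, where chance gives about 1 group in 20. Slc9a2 in V2 of mouse 1 was at 46.7 CPM, while the other 3 mice had 60.7 to 63.2 CPM. Cftr in V4 of mouse 2 was at 5.64 CPM, while the others had 12.8 to 13.5 CPM.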

How the results depend on the processing

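With the mouse as a replicate block, 1 ion transport gene, Car4, was called lower in V6 and in V4 than in V1 (0 without it), 7 member steps were called against 2, and 2174 gene steps against 200. Any difference between zones was called for 6 members against 3 and 4536 genes against 2562, and V6 against V4 for 126 genes higher and 6 lower. With total UMI scaling the trend had 1225 genes higher and 3692 lower, V6 against V1 1157 and 3089, and V4 against V1 1057 and 2975. Lower members were then 3 for the trend and 1 for each of the other comparisons with V1, and 1 member step was called. Without a filter, 0 members fell in trend (Car4, adjusted p = 0.058), 1 member step was called and 65 genes were higher in V6 than in V4. DESeq2 gave 65 higher and 1 lower there, and 507 gene steps, while limma-voom called 1 member step. Over V2 to V6 the trend had 862 genes higher and 255 lower, with 1 member rising (Slc9a2), and with the replicate block 1189 lower, 3 of them members. There the ratio of Slc9a3 to Slc9a2 had a slope of -0.352 and was not called. The cause of these shifts was not tested.

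Leaving out each mouse or library gave 1294 to 2238 genes and 0 to 1 members lower in trend, 982 to 1814 genes and 0 to 1 members lower in V6 than V1, and 952 to 1726 genes and 0 to 1 members lower in V4 than V1. It gave 25 to 50 genes higher in V6 than V4, 24 to 304 gene steps, 0 to 2 member steps, and 1367 to 2759 genes with any zone difference. The member steps fell to 0 without mouse 1, 3 or 4, or V1 of mouse 1 or V2 of mouse 3. DESeq2 size factors and removal of goblet markers before scaling changed none of the summary counts by over 1.5 times. No called member value changed sign under any of these alternatives. Of the member values under the alternatives, 950 stayed on the same side of the threshold, called or not, 31 lost a call and 13 gained one. Counts of 0 to 6 for Slc9a3 and 7 to 34 for Cftr limit what could be detected.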

Other observations

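Mice differed in level for several of these genes over all zones. Mean Slc4a4 over the 6 zones was 13 CPM in mouse 2 and 22.2, 30.3 and 29 CPM in mice 1, 3 and 4. Atp1b1 averaged 579 and 565 CPM in mice 1 and 2, and 770 and 743 CPM in mice 3 and 4, while Car4 ran the other way, with 340 and 326 CPM against 217 and 256 CPM. Mouse accounted for 36.4% of the variance in log2 level of Slc4a4, 36.2% for Atp1b1, 39.5% for Car4 and 26.1% for Slc26a3, beside 5.23% for Slc26a6 and 0.205% for Slc9a2. For Car4 the share of zone was 34.7%, below that of mouse. The V1 library of mouse 2, which carries the index of mouse 1, was the lowest of its zone for Slc9a2, Slc26a3, Slc26a6, Slc4a4, Car4 and Atp1b1, and had the highest Cftr.

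The 2 RefSeq start sites of Slc4a4 differ in sequence make-up. The window before the first, at chr5:88887010-88887259, had 82% GC and that before the second, at chr5:89027716-89027965, had 48.8%. Counts from the 3-prime end do not tell transcripts of these starts apart.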
